A study of Homo sapiens with 12 samples.

Results

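The genes described here are 10 enzymes that make serine and glycine and carry single carbon units on folate: PHGDH, PSAT1 and PSPH of serine synthesis, SHMT1, MTHFD1 and ALDH1L1 of the cytosolic arm, and SHMT2, MTHFD2, MTHFD1L and ALDH1L2 of the mitochondrial arm. They were chosen by name, with earlier results of these data known. All 10 were found among the 37184 genes counted in experiment 1 and the 31910 counted in experiment 2. For SHMT2 the deposited tables give only the gene ID, ENSG00000182199, and the other 9 were matched by symbol. All 10 had enough reads to be tested in every comparison.

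Total RNA was sequenced from HEK293, a human embryonic kidney line, in 4 groups of 3 libraries. Experiment 1 compared induced with uninduced cells of the line HEK293_Flp In/TO ΔFox2_Flag_mFox1, and experiment 2 compared induced cells of the same line with parental HEK293 cells given doxycycline. The line comes from a clone deficient in RBFOX2 and holds HA-Flag-tagged Rbfox1, mouse per its name, behind a promoter that doxycycline turns on (Flp-In T-REx system). Induction was with 0.5 µg/ml doxycycline for 2 weeks, and the uninduced cells were not treated. That dose and time are stated for the inducible line only. RBFOX1 and RBFOX2 are paralogous splicing regulators. In experiment 1 RBFOX1 and doxycycline differ together between the groups. In experiment 2 both groups had the drug, but RBFOX1, RBFOX2 and the clone differ together, so their parts cannot be told apart. The inducible line is 1 clone, and nothing states that replicates were separate cultures, so p-values measure the spread between these libraries, which may be technical.

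The gene counts of a library summed to between 34025315 and 55298749 reads in experiment 1 and between 37663525 and 50261916 in experiment 2. RBFOX1 averaged 42.1 ± 0.492 CPM (read counts scaled to the library size, ± SD, n = 3) in induced cells of experiment 1 and 4.04 ± 0.616 CPM in uninduced cells, and 37.5 ± 0.888 CPM in induced cells of experiment 2 against 0 in parental cells. RBFOX2 averaged 57.6 ± 2.61 CPM in induced and 57.6 ± 4.35 CPM in uninduced cells of experiment 1, and 47.4 ± 4.18 CPM in induced and 171 ± 0.685 CPM in parental cells of experiment 2. The 6 HEK293 markers looked up were all read in each group, at a summed 888 to 1193 CPM over all libraries. Most of that sum was VIM, with group means of 727 to 979 CPM, so it says little about the others. NEFM averaged 0.210 to 0.470 CPM in the groups of the inducible line and 33.6 CPM in parental cells. Of the 6 markers 1 fell in experiment 1, where 20.9% of all genes were called. In experiment 2, 1 rose and 3 fell, where 65% of all genes were called. Markers of haematopoietic cells and hepatocytes summed to at most 0.214 CPM in any library. Fibroblast markers reached 0.225 CPM in the inducible line and 0.664 to 1.08 CPM in parental cells, where COL1A2 was at 0. The mitochondrial ribosomal RNA MT-RNR2 took 21.7% to 24.1% of the counts in experiment 1 and 0.0286% to 0.0638% in experiment 2, so levels set across the experiments come from unlike libraries. Uninduced library 3 stood apart, with the lowest depth and a mean correlation of 0.990 with its own group on log2 CPM, against 0.991 to 0.995 for the other libraries.

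Serine is made from the glycolytic intermediate 3-phosphoglycerate by PHGDH, the entry enzyme, then PSAT1, an aminotransferase, then PSPH, a phosphatase. The SHMT enzymes split serine into glycine and a carbon unit that is held on tetrahydrofolate, SHMT1 in the cytosol and SHMT2 in mitochondria. In mitochondria MTHFD2 oxidises the unit and MTHFD1L releases it as formate, which the cytosolic enzyme MTHFD1 puts back on folate for purine and thymidylate synthesis. ALDH1L1 in the cytosol and ALDH1L2 in mitochondria instead oxidise the unit to carbon dioxide and make NADPH. ATF4, a transcription factor of the response to amino acid shortage, is known to drive several genes of serine synthesis and of the mitochondrial arm.

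Promoter sequence from RefSeq was at hand for 7 of the 10 genes, in 11 windows. PSPH, SHMT2 and ALDH1L2 are named only. The 250 bases before the start were searched on both strands for TGATGNAA, the C/EBP-ATF composite to which ATF4 and its partners are known to bind, and for CACGTG, the E-box known for MYC and related factors. These matches do not overlap each other in the windows shown. Of all 35116 windows of this length, 3.14% held the composite and 6.34% held the E-box. Among the members MTHFD1L had the composite and the E-box, each in 2 of its overlapping windows, and MTHFD1 had the E-box. The 4 windows below belong to genes whose values the results turn on: PSAT1 and MTHFD2, which moved in opposite directions in the experiments, and the cytosolic and mitochondrial pair MTHFD1 and MTHFD1L. They are on build GRCh38.p14, plus strand, at chr9:78296875-78297124 for PSAT1, chr2:74198365-74198614 for MTHFD2, chr14:64388103-64388352 for MTHFD1 and chr6:150866236-150866485 for MTHFD1L. Capitals mark the motifs, and each sequence ends at the base before the start.
PSAT1: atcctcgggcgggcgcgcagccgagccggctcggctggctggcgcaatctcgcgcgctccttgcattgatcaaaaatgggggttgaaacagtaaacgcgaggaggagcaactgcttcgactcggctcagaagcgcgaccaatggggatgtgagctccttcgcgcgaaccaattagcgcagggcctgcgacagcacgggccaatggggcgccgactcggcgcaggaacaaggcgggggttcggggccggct
MTHFD2: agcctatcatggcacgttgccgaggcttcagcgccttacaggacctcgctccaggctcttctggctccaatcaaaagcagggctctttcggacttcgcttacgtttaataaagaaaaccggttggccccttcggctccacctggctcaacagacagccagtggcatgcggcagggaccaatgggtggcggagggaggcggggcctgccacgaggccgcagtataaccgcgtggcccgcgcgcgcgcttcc
MTHFD1: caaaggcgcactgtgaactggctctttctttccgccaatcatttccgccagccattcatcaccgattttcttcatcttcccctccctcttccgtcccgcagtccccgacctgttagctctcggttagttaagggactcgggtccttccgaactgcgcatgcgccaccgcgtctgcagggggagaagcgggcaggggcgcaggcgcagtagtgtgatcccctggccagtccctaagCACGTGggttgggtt
MTHFD1L: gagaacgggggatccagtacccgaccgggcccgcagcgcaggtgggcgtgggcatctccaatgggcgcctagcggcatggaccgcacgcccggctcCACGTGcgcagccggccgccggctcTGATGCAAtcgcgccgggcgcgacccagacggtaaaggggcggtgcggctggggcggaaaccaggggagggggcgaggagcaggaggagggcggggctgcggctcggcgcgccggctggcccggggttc
The composite in MTHFD1L is TGATGCAA, whose first base lies 129 bases before the start, and its E-box begins 154 bases before the start. The E-box of MTHFD1 begins 15 bases before the start. The PSAT1 and MTHFD2 windows hold neither set of letters. A match describes letters only, and no binding was measured here.

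In experiment 1, 4 of the 10 enzymes fell and none rose in induced against uninduced cells. The 4 were PSAT1 of serine synthesis, MTHFD2 and ALDH1L2 of the mitochondrial arm and ALDH1L1 of the cytosolic arm. Over all genes 20.9% were called in this experiment, 10.5% higher and 10.4% lower, at an adjusted p under 0.05 in edgeR's quasi-likelihood test with Benjamini-Hochberg adjustment. The members' median log2 fold change was -0.19, against 0.0026 for all genes tested. In bulk RNA, fewer cells that express a gene and less of its RNA per cell cannot be told apart. Of all genes 3971 were called, against 1581 without induced library 1, 1678 without induced library 3, 2104 without uninduced library 2 and 5231 without uninduced library 3. The 4 members called lower became 2 without induced library 3 and 3 without any 1 of the other induced libraries or of uninduced libraries 1 and 2. Without uninduced library 3 there were 4 lower (PSAT1, MTHFD2, ALDH1L2 and SHMT2) and 1 higher (MTHFD1).

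In experiment 2, 6 enzymes rose and 2 fell in induced against parental cells. PHGDH and PSAT1 of serine synthesis and all 4 members of the mitochondrial arm rose, while SHMT1 and MTHFD1 of the cytosolic arm fell. PSPH and ALDH1L1 did not pass the test. Over all genes 65% were called here, 32.1% higher and 32.9% lower, so most expressed genes passed and the share of members called, 8 of 10, is read against that. The members' median log2 fold change was 0.28, against -0.0091 for all genes tested.

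**Figure D1:**
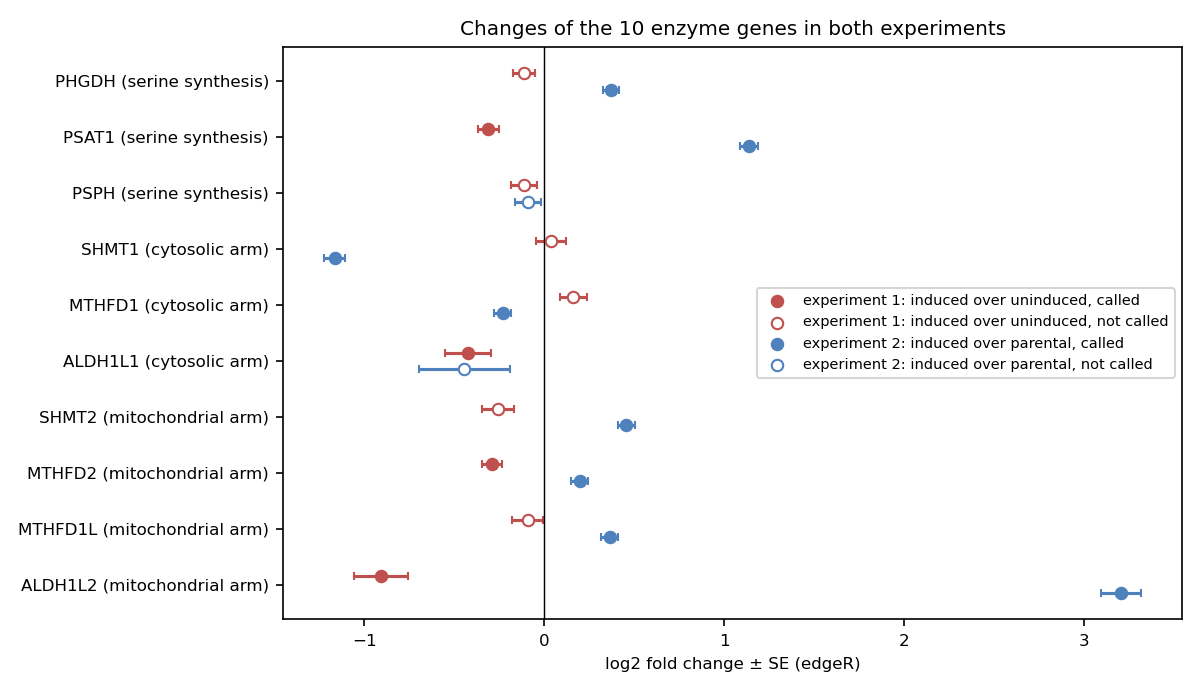
Log2 fold change (x axis) of each of the 10 enzyme genes (y axis) in both experiments. It is induced over uninduced cells in experiment 1 and induced over parental cells in experiment 2. Bars are standard errors derived from edgeR's test statistic (3 libraries a group). Filled points passed the test at an adjusted p under 0.05; ALDH1L2 lies at -0.91 in experiment 1 and 3.20 in experiment 2.

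PSAT1 showed the clearest change among the serine synthesis genes. Its level was 192, 175 and 179.8 CPM in induced libraries of experiment 1, against 232, 213 and 233 CPM in uninduced libraries. The groups did not overlap, and the log2 fold change was -0.31 (SE 0.060, adjusted p = 0.00802). In experiment 2 PSAT1 had 109, 110.3 and 108 CPM in induced libraries, against 50.8, 47.5 and 50.9 CPM in parental libraries. All 3 induced libraries were above all 3 parental ones, a 2.20-fold difference (log2 1.14, SE 0.050, adjusted p = 2.40e-14). The change thus ran down in experiment 1 and up in experiment 2, and the difference between the experiments was 1.45 on the log2 scale (SE 0.078, adjusted p = 3.62e-11).

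PHGDH, the entry enzyme, had 164, 148 and 165 CPM in induced libraries of experiment 1, against 177, 163 and 176 CPM in uninduced libraries. These ranges overlapped, and the log2 difference of -0.11 had a 95% interval from -0.23 to 0.0057 (adjusted p = 0.218). In experiment 2 the induced libraries had 164, 169.7 and 162 CPM, against 129, 127 and 128 CPM in parental libraries. Here the groups stood apart, and PHGDH rose by 0.37 on the log2 scale (SE 0.046, adjusted p = 4.20e-07). Its difference between the experiments was 0.48 (SE 0.076, adjusted p = 3.40e-05).

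PSPH, the last enzyme of the pathway, overlapped between the groups in both experiments. Its mean was 29.8 ± 2.15 CPM in induced and 32.2 ± 2.21 CPM in uninduced cells of experiment 1 (SD, n = 3 each). In experiment 2 it was 27.1 ± 1.96 CPM in induced and 28.8 ± 2.53 CPM in parental cells. The 95% intervals of its log2 fold change ran from -0.26 to 0.034 in experiment 1, and in experiment 2 they ran from -0.23 to 0.054. The adjusted p-values were 0.320 in experiment 1 and 0.297 in experiment 2.

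ALDH1L2, the mitochondrial enzyme that oxidises formyl-folate to carbon dioxide, had the widest range of the members. It had 55.9, 66.4 and 54.7 CPM in induced libraries of experiment 1, against 104, 89.1 and 139.9 CPM in uninduced libraries. Every induced library was below every uninduced one, and the log2 fold change was -0.91 (SE 0.15, adjusted p = 0.00415), a fold of 0.533. Uninduced library 3 held the highest value, and without it the log2 fold change was -0.71. In experiment 2 ALDH1L2 had 45.9, 40.3 and 32.4 CPM in induced libraries, against 4.14, 4.14 and 4.56 CPM in parental libraries. The parental values rest on 180, 201 and 247 counts and sit far below all libraries of the inducible line. The difference was 9.22-fold (log2 3.20, SE 0.11, adjusted p = 4.96e-16). Its change differed between the experiments by 4.11 on the log2 scale (SE 0.21, adjusted p = 1.95e-11), the largest such difference among the 10 genes.

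MTHFD2, the mitochondrial dehydrogenase and cyclohydrolase, had 241, 225 and 231 CPM in induced libraries of experiment 1, against 296, 274 and 282 CPM in uninduced libraries. The groups did not overlap, and MTHFD2 fell by 0.29 on the log2 scale (SE 0.057, adjusted p = 0.00853). Without induced library 3 the log2 fold change was -0.28 with an adjusted p of 0.0501. In experiment 2 it had 145, 139 and 144 CPM in induced libraries, against 128, 119.7 and 127 CPM in parental libraries. All induced libraries were again apart from the parental ones, and the rise was 0.20 (SE 0.047, adjusted p = 0.000953). The difference between the experiments was 0.49 (SE 0.074, adjusted p = 2.41e-05).

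SHMT2, the mitochondrial serine hydroxymethyltransferase, had 189.7, 160.4 and 185 CPM in induced libraries of experiment 1, against 236, 215 and 189 CPM in uninduced libraries. The highest induced and the lowest uninduced library were nearly equal, and the log2 fold change of -0.26 (SE 0.090) missed the threshold at an adjusted p of 0.0704. Without uninduced library 3 it was -0.34 with an adjusted p of 0.00252, and it was also past the threshold in DESeq2 (-0.26, adjusted p = 0.0340). In experiment 2 SHMT2 had 264, 270.0 and 259.8 CPM in induced libraries, against 201, 195 and 182 CPM in parental libraries. The groups did not overlap, and SHMT2 rose by 0.46 (SE 0.048, adjusted p = 3.61e-08). The experiments differed by 0.71 (SE 0.11, adjusted p = 1.72e-05).

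MTHFD1L, which releases formate from mitochondrial folate, had 63.0, 62.8 and 60.0 CPM in induced libraries of experiment 1, against 60.5, 61.6 and 76.3 CPM in uninduced libraries. Uninduced library 3 was the high one, the ranges overlapped, and the log2 fold change was -0.092 (SE 0.085, adjusted p = 0.480), with 0.020 when that library was left out. In experiment 2 it had 98.4, 97.2 and 104 CPM in induced libraries, against 77.1, 76.7 and 78.9 CPM in parental libraries. It rose by 0.36 with no overlap (SE 0.048, adjusted p = 9.46e-07). Its change differed between the experiments by 0.46 (SE 0.10, adjusted p = 0.000822).

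**Figure D2:**
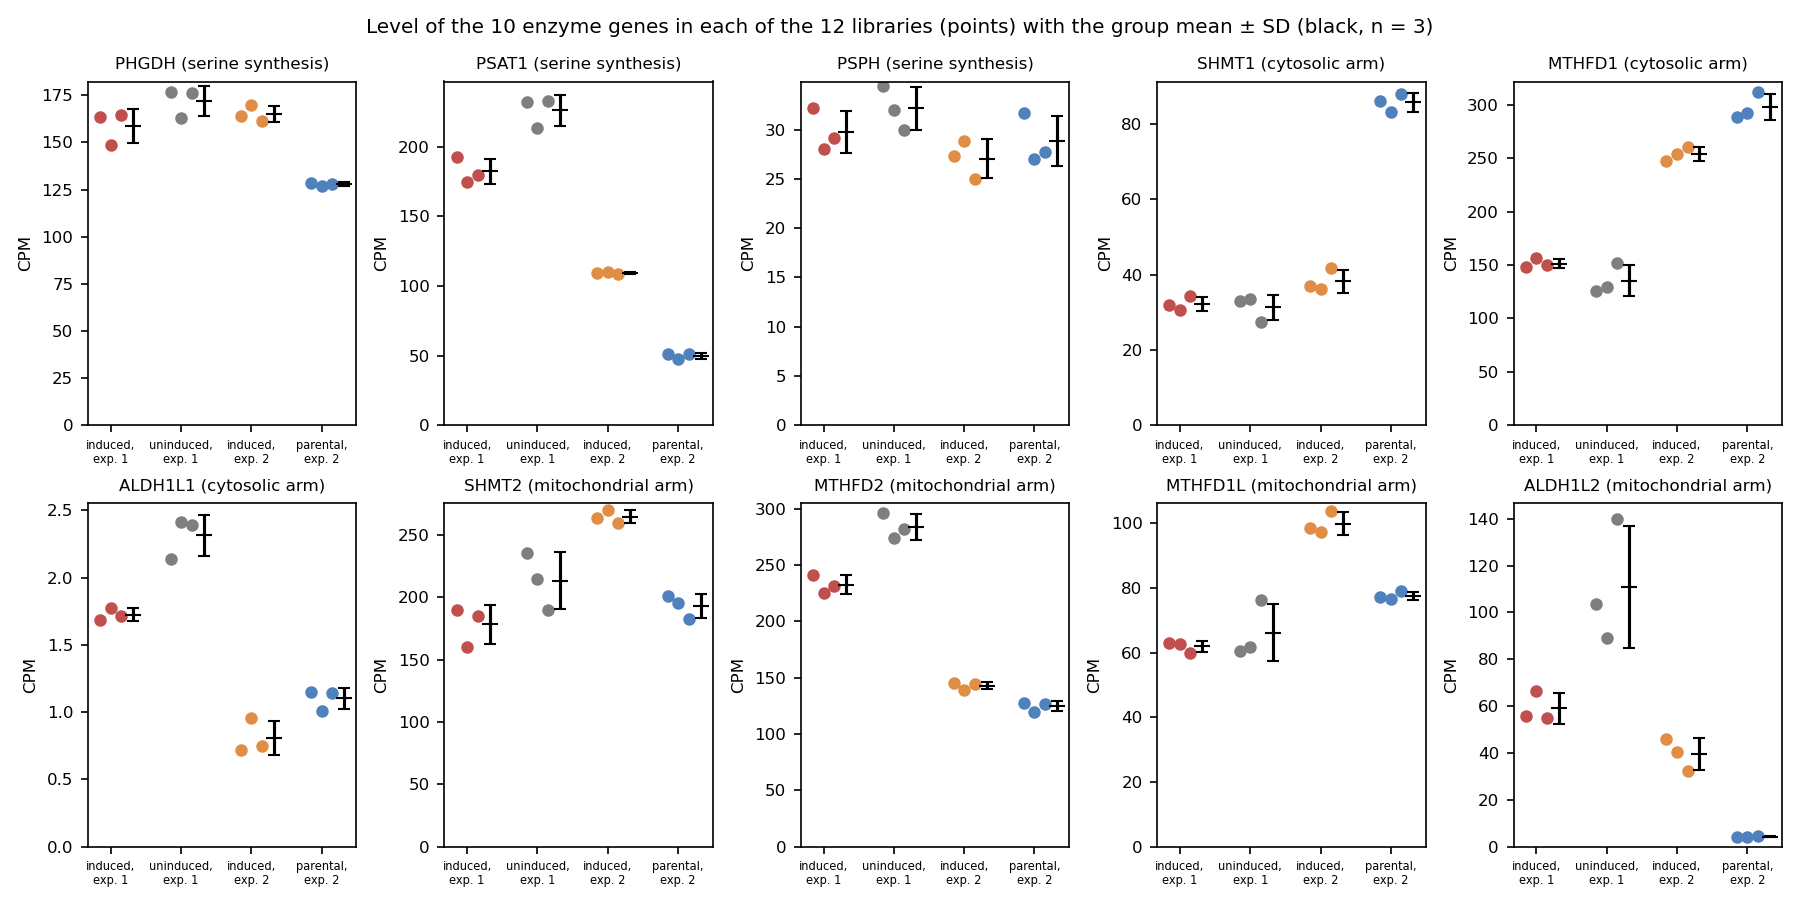
Level of each enzyme gene in CPM (y axis, from 0) in the 4 groups (x axis), 1 point a library, with the group mean ± SD (n = 3) in black. PSAT1, MTHFD2 and ALDH1L2 share the order uninduced, induced of experiment 1, induced of experiment 2, parental, and SHMT1 and MTHFD1 are highest in parental cells.

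Of the cytosolic arm, SHMT1 fell in experiment 2 and showed no detected change in experiment 1. SHMT1, the cytosolic serine hydroxymethyltransferase, had 31.8, 30.6 and 34.3 CPM in induced libraries of experiment 1, against 32.9, 33.6 and 27.5 CPM in uninduced libraries. The ranges overlapped, and the 95% interval of the log2 fold change ran from -0.13 to 0.20 (adjusted p = 0.789). In experiment 2 it had 36.9, 36.1 and 41.8 CPM in induced libraries, against 86.1, 83.1 and 88.1 CPM in parental libraries. The induced libraries held less than all parental ones, at a fold of 0.446 (log2 -1.16, SE 0.058, adjusted p = 1.79e-13). The change in experiment 2 differed from that in experiment 1 by -1.20 (SE 0.11, adjusted p = 3.40e-08).

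MTHFD1, the trifunctional cytosolic enzyme, had 148, 156 and 149.7 CPM in induced libraries of experiment 1, against 126, 129 and 152 CPM in uninduced libraries. Uninduced library 3 lay within the induced range. The log2 fold change was 0.16 (SE 0.074, adjusted p = 0.153), and 0.25 with an adjusted p of 0.00297 without that library. In experiment 2 MTHFD1 had 248, 254 and 261 CPM in induced libraries, against 289, 293 and 312 CPM in parental libraries. The groups did not overlap, and MTHFD1 fell by 0.23 (SE 0.048, adjusted p = 0.000236). The experiments differed by -0.39 (SE 0.092, adjusted p = 0.00151).

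ALDH1L1, the cytosolic counterpart of ALDH1L2, was read at low levels, from 29 to 109 counts a library. It had 1.68, 1.78 and 1.71 CPM in induced libraries of experiment 1, against 2.14, 2.41 and 2.39 CPM in uninduced libraries. The groups did not overlap, and it fell by 0.42 on the log2 scale (SE 0.13, adjusted p = 0.0464). Leaving out any 1 of the 6 libraries gave an adjusted p from 0.0574 to 0.155, and DESeq2 gave 0.121. In experiment 2 it had 0.718, 0.954 and 0.751 CPM in induced libraries, against 1.15, 1.01 and 1.14 CPM in parental libraries. All induced values were below the parental ones, yet the log2 fold change of -0.44 had an SE of 0.25 and an adjusted p of 0.130. ALDH1L1 is a known astrocyte marker, and of the 3 other astrocyte markers looked up (GFAP, AQP4 and SLC1A2) none was at 0 throughout any group. In induced cells of experiment 2 GFAP was nearly absent, at 0.0083 ± 0.0145 CPM against 1.91 ± 0.199 CPM in parental cells (log2 -7.43, adjusted p = 7.55e-11), while SLC1A2 (1.91, adjusted p = 2.65e-07) and AQP4 (0.85, adjusted p = 0.0126) were higher there. GFAP was also nearly absent in experiment 1, at 0.0146 ± 0.0128 CPM in induced and 0.0250 ± 0.0045 CPM in uninduced cells. There SLC1A2 fell by 0.72 (adjusted p = 0.00432), and AQP4 missed the threshold (-0.30, adjusted p = 0.0590). The summed level of the 3 was 6.94 to 8.20 CPM in induced and 10.4 to 11.2 CPM in uninduced libraries of experiment 1, and 2.90 to 3.69 CPM in induced and 3.01 to 3.25 CPM in parental libraries of experiment 2. Their part in the ALDH1L1 values was not tested. Rows for the antisense genes ALDH1L1-AS1 and ALDH1L1-AS2 held at most 5 counts, up to 13.3% of the ALDH1L1 count, and the strand setting of the counting is not given, so these reads cannot be kept apart from ALDH1L1 with certainty. The other 10 related rows, pseudogenes of the members, had at most 0.996% of the member's counts.

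Each mitochondrial enzyme was then set against its cytosolic counterpart within each library, as the log2 ratio of their counts. Gene lengths were not used, so only differences of a ratio between groups are read. Differences carry the SE over libraries, and the 2-sided exact permutation test of 3 against 3 libraries cannot go below 0.1. With 4 ratios in both experiments 8 tests were made, and none could pass 0.05. The ratios of MTHFD2 and of MTHFD1L share the MTHFD1 count, so they are not independent of each other. How many ratios of other gene pairs stand apart between the groups was not counted. Of all genes 20.9% were called in experiment 1 and 65% in experiment 2, so separate groups need not be particular to these pairs.

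In experiment 1 all 4 ratios were lower in induced cells. SHMT2 over SHMT1 was 2.58, 2.39 and 2.43 in induced libraries, against 2.84, 2.68 and 2.78 in uninduced libraries. The difference was -0.30 ± 0.074 (SE), with no overlap. MTHFD2 over MTHFD1 was 0.71, 0.52 and 0.63 in induced libraries, against 1.24, 1.08 and 0.90 in uninduced libraries. The groups stood apart by -0.45 ± 0.11. MTHFD1L over MTHFD1 was -1.23, -1.31 and -1.32 in induced libraries, against -1.05, -1.06 and -0.99 in uninduced libraries. This ratio differed by -0.25 ± 0.036, and its uninduced library 3 lay beside the other 2. The exact p was 0.1 for each of these 3 ratios, 0.114 after adjustment over the 8 tests. ALDH1L2 over ALDH1L1 differed by -0.47 ± 0.20 with overlapping groups (exact p = 0.2, adjusted 0.2).

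In experiment 2 all 4 ratios were higher in induced cells and no pair of groups overlapped. SHMT2 over SHMT1 was 2.84, 2.90 and 2.64 in induced libraries, against 1.22, 1.23 and 1.05 in parental libraries. The difference of 1.62 ± 0.099 (SE) makes the ratio 3.08-fold higher. MTHFD2 over MTHFD1 was -0.77, -0.86 and -0.85 in induced libraries, against -1.18, -1.29 and -1.30 in parental libraries. It differed by 0.43 ± 0.049, or 1.34-fold. MTHFD1L over MTHFD1 was -1.33, -1.38 and -1.33 in induced libraries, against -1.91, -1.93 and -1.98 in parental libraries, a 1.51-fold difference (0.59 ± 0.030). ALDH1L2 over ALDH1L1 was 5.97, 5.38 and 5.41 in induced libraries, against 1.84, 2.03 and 1.99 in parental libraries. It was 12.4-fold higher (3.64 ± 0.20), and in all 4 ratios the exact p was 0.1 (adjusted 0.114). The last ratio rests on few ALDH1L1 counts, 29, 39 and 30 in induced and 50, 49 and 62 in parental libraries.

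**Figure D3:**
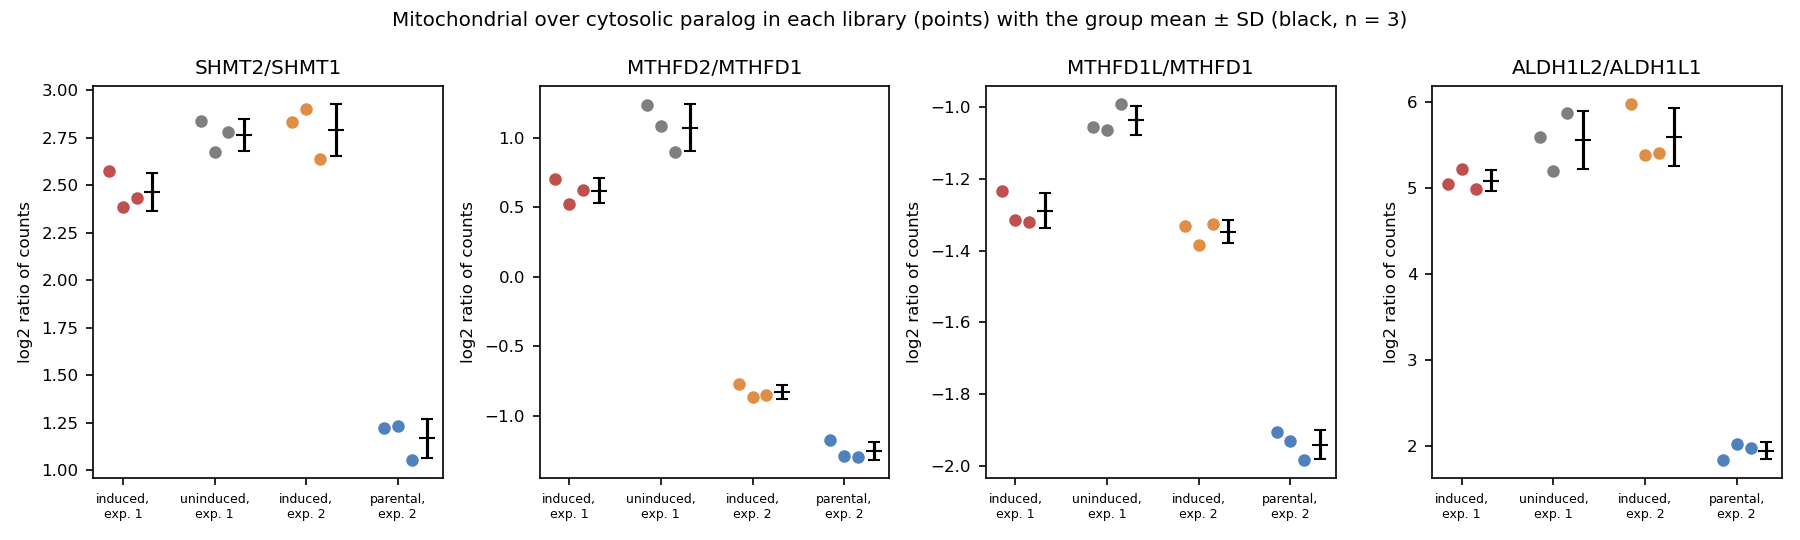
Log2 ratio of the counts of a mitochondrial enzyme gene to its cytosolic counterpart (y axis, each panel with its own range) in the 4 groups (x axis), 1 point a library, with the group mean ± SD (n = 3) in black. Induced cells of experiment 1 lie below uninduced cells in 3 ratios without overlap, and induced cells of experiment 2 lie above parental cells in all 4. How many ratios of other gene pairs do so was not counted.

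The difference between the experiments was tested for each gene as the change in experiment 2 minus the change in experiment 1. It was called for 8 members, 6 higher and 2 lower, where 52.2% of all genes were called (25.9% higher and 26.3% lower). Besides the 8 values given with each gene above, PSPH differed by 0.021 (95% interval -0.20 to 0.24, adjusted p = 0.893) and ALDH1L1 by -0.020 (95% interval -0.48 to 0.44, adjusted p = 0.953).

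Across all 4 groups the uninduced line had the highest mean for 6 members, namely all 3 serine synthesis genes, MTHFD2, ALDH1L2 and ALDH1L1. For PSAT1, MTHFD2 and ALDH1L2 the order was uninduced, induced of experiment 1, induced of experiment 2 and parental, and no neighbours overlapped. ALDH1L1 also had 4 separate ranges, with parental cells above induced cells of experiment 2. Parental cells led for SHMT1 and MTHFD1, followed by induced cells of experiment 2, and the 2 groups of experiment 1 came last and overlapped. SHMT2 and MTHFD1L were highest in induced cells of experiment 2, apart from all other groups. For SHMT2 the other 3 groups overlapped in turn. For MTHFD1L parental cells came next, and the 2 groups of experiment 1 overlapped. The 4 ranges of PSPH overlapped in turn. PHGDH was separate only in parental cells, below the other 3 groups. Steps between groups of different experiments cross unlike libraries. Of all genes 68.9% were called between the 2 induced groups and 79.6% between uninduced and parental cells. How many of all genes have such orders or separate ranges was not counted.

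The uninduced line was set against parental cells in the joint fit of all 12 libraries. This contrast mixes the clone, RBFOX1, RBFOX2, the drug and the experiment, and 79.6% of all genes were called (40.8% higher and 38.8% lower). PSAT1 averaged 226 ± 11.1 CPM in uninduced and 49.7 ± 1.90 CPM in parental cells (SD, n = 3 each), 4.55-fold higher (log2 2.19, adjusted p = 2.42e-16). ALDH1L2 averaged 111 ± 26.1 CPM in uninduced and 4.28 ± 0.240 CPM in parental cells, 25.8-fold higher (log2 4.69, adjusted p = 1.03e-14). MTHFD2 (1.19, adjusted p = 2.95e-13), ALDH1L1 (1.07, adjusted p = 9.23e-06) and PHGDH (0.43, adjusted p = 7.87e-07) were also higher. SHMT1 (-1.45, adjusted p = 2.70e-12), MTHFD1 (-1.14, adjusted p = 1.09e-11) and MTHFD1L (-0.23, adjusted p = 0.00585) were lower. PSPH (0.16, adjusted p = 0.0708) and SHMT2 (0.15, adjusted p = 0.0825) missed the threshold. Without uninduced library 3 both passed it, PSPH at 0.21 (adjusted p = 0.0174) and SHMT2 at 0.23 (adjusted p = 0.00300), and PSPH also passed without parental library 1, at 0.21 (adjusted p = 0.0253). SHMT2 was 0.069 without uninduced library 1 (adjusted p = 0.418) and 0.093 without parental library 3 (adjusted p = 0.327), and PSPH was 0.098 without parental library 2 (adjusted p = 0.309).

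Induced cells of the inducible line were sequenced in both experiments, and 8 members differed between them, where 68.9% of all genes were called (34.8% higher and 34.2% lower). Induced cells of experiment 2 were higher than those of experiment 1 in MTHFD1 (log2 0.75, adjusted p = 9.59e-09), MTHFD1L (0.69, adjusted p = 8.55e-08), SHMT2 (0.57, adjusted p = 2.26e-06) and SHMT1 (0.25, adjusted p = 0.00775). They were lower in ALDH1L1 (-1.09, adjusted p = 3.10e-05), PSAT1 (-0.74, adjusted p = 9.98e-10), MTHFD2 (-0.70, adjusted p = 1.30e-09) and ALDH1L2 (-0.58, adjusted p = 0.000944). The SHMT1 call was lost without induced library 3 of experiment 2, at 0.17 (adjusted p = 0.0782). PHGDH (0.055, 95% interval -0.051 to 0.16) and PSPH (-0.14, 95% interval -0.29 to 0.017) did not pass the test. The labels give both sets the same line, dose and time, and the 2 sets differ in experiment and in the share of MT-RNR2 reads. This contrast and the one of uninduced over parental cells use the same libraries as the comparisons above.

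The wider pathway was followed in 37 other genes of serine, glycine and folate metabolism, a list also chosen with earlier results known. In experiment 1, 34 of them were tested, and 7 rose and 2 fell, where 10.5% of all genes were called higher and 10.4% lower. Their median log2 fold change was 0.065, against 0.0026 for all genes. MAT2A, which makes S-adenosylmethionine, averaged 143 ± 4.73 CPM in induced and 101 ± 6.85 CPM in uninduced cells (log2 0.50, adjusted p = 0.00136). SLC19A1, the reduced folate carrier, rose by 0.45 (adjusted p = 0.0126), a call lost without induced library 1 (adjusted p = 0.0615) or 3 (adjusted p = 0.0573). CTH, the cystathionine lyase of cysteine synthesis, averaged 26.5 ± 1.36 CPM in induced and 42.4 ± 4.15 CPM in uninduced cells (-0.67, adjusted p = 0.00107). SARDH, a mitochondrial sarcosine dehydrogenase, fell by 0.80 (adjusted p = 0.0200) from low counts, and its adjusted p was 0.0608 to 0.0947 without induced library 1 or 2 or without uninduced library 1 or 2. By role, 3 of 9 other folate enzymes rose, 2 of 7 transport and retention genes rose, 1 of 6 purine synthesis genes rose and none of these fell, and none of the 4 glycine cleavage genes was called. Of 4 methionine cycle and transsulfuration genes 1 rose and 1 fell, and of 4 genes of serine and glycine use 1 fell. Among the folate enzymes MTRR, which reactivates methionine synthase, rose by 0.17 (adjusted p = 0.0455), but DESeq2 gave 0.0508, and leaving out any 1 library other than uninduced library 3 gave 0.0612 to 0.166. MTHFD2L (0.32, adjusted p = 0.0331) was lost without induced library 1, 2 or 3 or without uninduced library 2 (0.0550 to 0.133). The 7 higher calls became 3 without induced library 1 or 3, 4 without uninduced library 2 and 10 without uninduced library 3. The 2 lower calls became 1 without induced library 1 or 2 or without uninduced library 1 or 2.

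In experiment 2, 35 of the 37 genes were tested, and 9 rose and 17 fell, where 32.1% of all genes were called higher and 32.9% lower. Their median was -0.16, against -0.0091 for all genes. SDSL, a serine dehydratase-like protein, averaged 12.3 ± 0.678 CPM in induced and 3.84 ± 0.420 CPM in parental cells (log2 1.68, adjusted p = 8.81e-12). MTRR averaged 101 ± 1.34 CPM in induced and 62.2 ± 3.74 CPM in parental cells (0.70, adjusted p = 1.58e-10). TYMS, the thymidylate synthase, rose by 0.65 (adjusted p = 1.06e-09). The 3 largest falls were FOLR1, a folate receptor (-1.71, adjusted p = 0.00101), SARDH (-1.54, adjusted p = 0.000831) and GNMT, a glycine methyltransferase (-1.25, adjusted p = 0.0183), all under 1 CPM in both groups. The GNMT call was lost without induced library 1 (adjusted p = 0.0648) or 3 (0.0760) or without parental library 2 (0.177). By role, 5 of 7 transport and retention genes fell and 1 rose. Of 9 other folate enzymes 4 rose and 2 fell, of 5 methionine cycle and transsulfuration genes 2 rose and 3 fell, of 4 genes of serine and glycine use 1 rose and 2 fell, and of 4 glycine cleavage genes 1 rose and 1 fell. Of 6 purine synthesis genes 4 fell and none rose. The 4 that fell, named after their values were seen, were PFAS (-0.72), PAICS (-0.48), PPAT (-0.31) and ATIC (-0.22, adjusted p = 0.00273). They are enzymes of the purine route, only some steps of which use formyl-folate, and a link of their falls to folate was not tested.

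ATF4 and 7 genes it is known to drive were taken as a further group of 8. This group too was chosen with earlier results of these data known, so its counts beside the shares of all genes are a description only. In experiment 1, 6 of the 8 fell and none rose, where 10.4% of all genes were called lower. The median log2 fold change was -0.61, against 0.0026 for all genes. DDIT3, a stress transcription factor, averaged 22.0 ± 2.10 CPM in induced and 45.9 ± 2.98 CPM in uninduced cells (-1.06, adjusted p = 0.000253). TRIB3, a pseudokinase, fell by 0.89 (adjusted p = 0.000316), and CHAC1, which degrades glutathione, fell by 0.67 (adjusted p = 0.0200). The CHAC1 call was lost without any 1 library other than uninduced library 3, with an adjusted p from 0.0531 to 0.0799. ATF4 itself averaged 604 ± 45.0 CPM in induced and 623 ± 77.5 CPM in uninduced cells (-0.046, adjusted p = 0.773). In experiment 2 all 8 rose, where 32.1% of all genes were called higher. Their median was 1.04, against -0.0091 for all genes. CHAC1 rose by 1.79 (adjusted p = 3.55e-11) and TRIB3 by 1.76 (adjusted p = 3.83e-14). ASNS, the asparagine synthetase, averaged 185 ± 8.63 CPM in induced and 62.6 ± 0.293 CPM in parental cells (1.57, adjusted p = 1.05e-16). ATF4 averaged 616 ± 16.0 CPM in induced and 481 ± 19.2 CPM in parental cells (0.36, adjusted p = 1.16e-06). MYC, another known regulator of these enzymes, rose by 0.39 in experiment 1 (adjusted p = 0.00429) and fell by 0.18 in experiment 2 (adjusted p = 0.00176). NFE2L2, the other regulator looked up and named after its values were seen, went the other way, with -0.22 in experiment 1 (adjusted p = 0.0292) and 0.51 in experiment 2 (adjusted p = 6.71e-07). Its call in experiment 1 was lost without induced library 1, 2 or 3 or without uninduced library 2 (adjusted p from 0.0694 to 0.116). These genes and the members come from the same libraries, and a link between them was not tested.

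**Figure D4:**
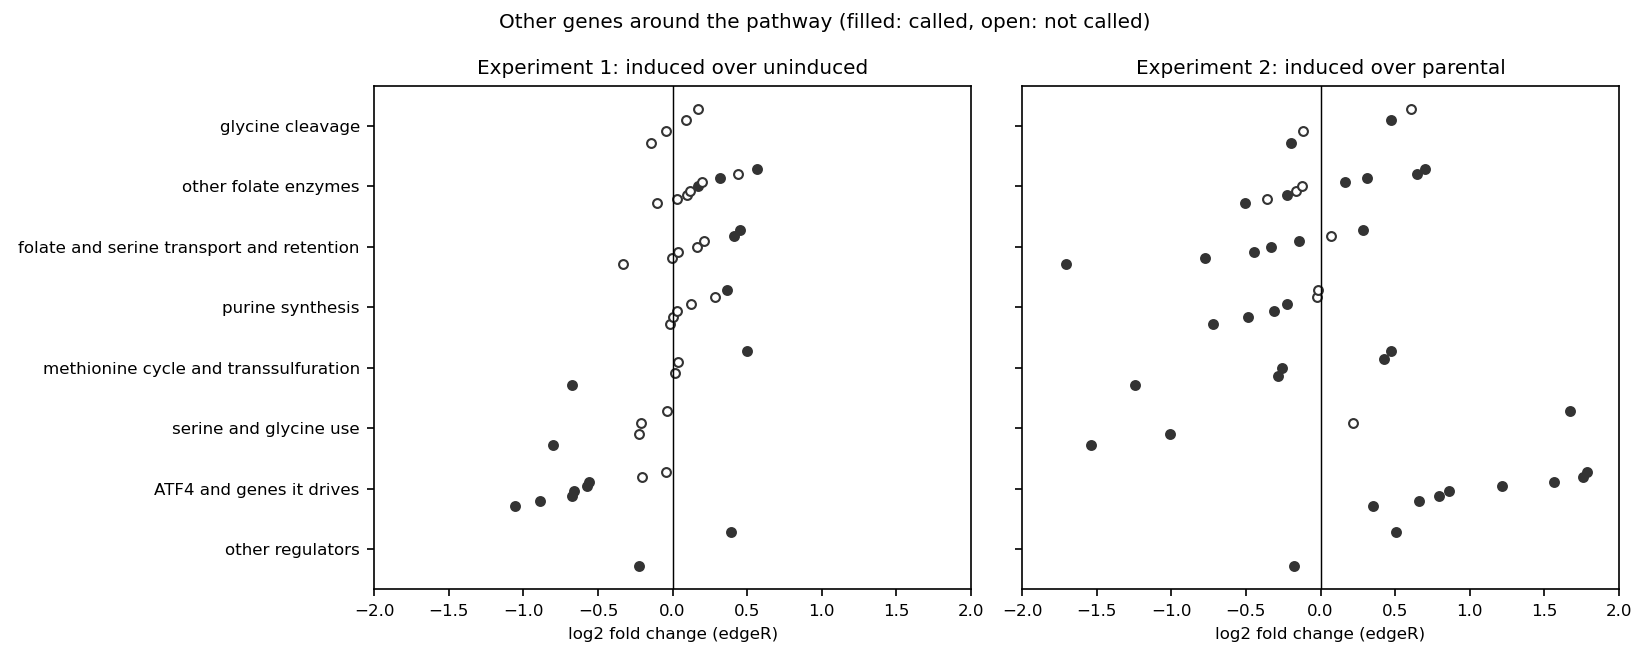
Log2 fold change (x axis) of the other pathway genes and of ATF4, its known targets and other regulators, by role (y axis), in experiment 1 (left) and experiment 2 (right); filled points passed the test. In the row of ATF4 and the genes it drives, 6 of 8 points are called lower in experiment 1 and 8 of 8 are called higher in experiment 2. The lists were chosen with earlier results of these data known.

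The genes whose levels followed PHGDH and MTHFD2 most closely were looked for among 10101 genes, by Pearson's r of log2 CPM over the 12 libraries after centring within each experiment. For PHGDH they were SNX3 (r = 0.979), a sorting nexin, SLC1A4 (r = 0.975), a carrier of serine and alanine, and STK40 (r = 0.971). For MTHFD2 they were TCTN1 (r = 0.969), GPT2 (r = 0.964), the mitochondrial alanine transaminase, and XPOT (r = 0.960), an exporter of transfer RNA. SLC1A4 rose by 0.82 in experiment 2 (adjusted p = 7.12e-09) and had -0.22 in experiment 1 (adjusted p = 0.0892). XPOT fell by 0.49 in experiment 1 (adjusted p = 0.00153) and rose by 0.43 in experiment 2 (adjusted p = 7.12e-08). The points share libraries and group differences, so r is a description only.

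Circular RNAs, which form when the end of an exon is spliced back to an earlier start, were few for these genes. In experiment 1 the tables listed 36 circular RNAs from 6 of the member genes with 74 back-splice reads in all, and in experiment 2 they listed 40 from 5 of them with 97 reads. By host gene the reads in experiment 1 were 12 in induced and 19 in uninduced cells for MTHFD1L, 17 in induced and 8 in uninduced cells for MTHFD1, and 7 in induced and 2 in uninduced cells for SHMT1. In experiment 2 they were 20 in induced and 26 in parental cells for MTHFD1L, 8 in induced and 29 in parental cells for MTHFD1, and 3 in induced and 7 in parental cells for SHMT1. Only 1 circular RNA in each experiment had enough reads to be tested, and both came from exons of MTHFD1L. The one of experiment 1, of 6 exons at chr6:151330955-151358253 (hg19, plus strand), had 2 reads in induced and 9 in uninduced cells (log2 -2.07, SE 1.05, adjusted p = 0.965). In experiment 2 this same circular RNA had 5 reads in induced and 3 in parental cells, too few to be tested. The one of experiment 2, of 5 exons at chr6:151198770-151209117, had 1 read in induced and 10 in parental cells (log2 -2.67, SE 1.65, adjusted p = 0.555). The 1 induced read lay in induced library 2, and the fitted value without it, -4.68, rests on 0 induced reads and depends on the prior count. Neither differed detectably at this depth. Over all circular RNAs tested edgeR called 0% of 1701 in experiment 1, where 77 had a p under 0.05 before adjustment, and DESeq2 gave 0 calls and 14 such p-values. In experiment 2 edgeR called 1.68% of 2381.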

How the data were processed

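Total RNA of 12 HEK293 libraries was prepared with an Illumina TruSeq RNA kit and read from both ends on a NextSeq500, per the labels. The authors deposited, for each experiment, a table of raw counts per gene and a table of raw counts of back-splice reads per circular RNA, neither normalized. The submitters' processing notes name STAR 2.5.2b and GRCh37 (hg19) without a role. The counter, annotation, strand setting and circular RNA caller are not given in the sources used here.

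Genes passing filterByExpr (a count of at least 10 and a total of at least 15) were scaled by TMM. The 2-sided test was edgeR quasi-likelihood (version 4.0.16, R 4.3.3), run on each experiment alone, with Benjamini-Hochberg adjustment over all genes tested. A gene was called at an adjusted p under 0.05. The difference between experiments and the contrasts across them came from 1 fit of all 12 libraries over the genes in both tables. CPM used effective library sizes of that joint scaling. SEs of log2 fold changes were derived as the size of the change over the square root of edgeR's F statistic. Intervals are the log2 fold change ± 1.96 SE. This normal multiplier makes them narrower than the test implies. For MTHFD1 in experiment 1 the interval would run from 0.017 to 0.31, though the edgeR p before adjustment was 0.0556. Circular RNAs needed 10 reads in an experiment, spread over 3 or more libraries. Arm ratios used counts plus 0.5. The likeness search used log2 CPM with a prior count of 2 and genes with a mean of at least 3. The gene fits were tested on simulated data. The circular RNA simulation used totals of back-splice reads as library sizes. The reported circular RNA fit used library sizes of the gene counts, and that setting was not simulated. Alternatives were RLE scaling, library totals, no filter, DESeq2 1.42.0, a replicate block and leaving out each library.

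The members and lists were chosen with earlier results of these data known. Besides the members, the text names RBFOX1 and RBFOX2, ATF4, and up to 3 called genes with the largest change per list, experiment and direction, of which 1 is not reported here. It also names the 3 genes most like PHGDH and MTHFD2, and some cell type markers. MTHFD2L, PFAS, PAICS, PPAT, ATIC and NFE2L2 are outside these rules and were named after their values were seen.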

Additional observations from a re-analysis of the deposited data

Results flagged for a closer look

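The change in experiment 2 (induced over parental) minus the change in experiment 1 (induced over uninduced) passed the edgeR test of that difference for 8 of the 10 enzymes, as it did for 52.2% of all genes. It was 4.11 on the log2 scale for ALDH1L2, 1.45 for PSAT1, 0.71 for SHMT2, 0.49 for MTHFD2, 0.48 for PHGDH and 0.46 for MTHFD1L, and it was -1.20 for SHMT1 and -0.39 for MTHFD1. PSAT1, MTHFD2 and ALDH1L2 passed the test in both experiments, lower in experiment 1 and higher in experiment 2. The other 5 passed in experiment 2 alone. Over all genes 10.4% were called lower in experiment 1 and 32.1% were called higher in experiment 2. The share of all genes called that way in both experiments was not counted. The controls of the experiments differ in clone, RBFOX1, RBFOX2, drug and experiment, and the source of the differences was not tested.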

How the results depend on the processing

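Of 1316 alternative values of 104 single-gene and circular RNA results, 1234 kept direction and side of the threshold, 53 lost the call, 10 gained it and 19 turned sign, none of these from a call. The 8 ratio differences kept their direction in every alternative run. The turned values of experiment 1 were SHMT1 at -0.0064 without induced library 3 and -0.046 without uninduced library 3 (leave-one-out range -0.046 to 0.091), MTHFD1L at 0.020 without uninduced library 3 (-0.15 to 0.020), and ATF4 at 0.0022 without induced library 2 and 0.025 without uninduced library 1 (-0.15 to 0.025). Differences between the experiments turned for PSPH (-0.013 with RLE scaling and in DESeq2, and -0.024, -0.031, -0.014, -0.058, -0.054 and -0.035 in leave-one-out fits, range -0.058 to 0.081) and ALDH1L1 (0.035, 0.029 and 0.0025, range -0.19 to 0.035). With library totals, induced cells of experiment 2 over those of experiment 1 had PSPH at 0.068, and uninduced over parental cells had PSPH at -0.039 and SHMT2 at -0.054. These totals moved the median of all genes to 0.18 and -0.14 in those contrasts, and with them PHGDH passed between the induced cells at 0.26 (adjusted p = 0.000524). Genes called in experiment 1 ranged from 1581 to 5231 when a library was left out, members called lower from 2 to 4 and higher from 0 to 1, pathway genes higher from 3 to 10 and lower from 1 to 2. Circular RNAs called in experiment 2 ranged from 14 to 41. Same-numbered libraries did not deviate together (r = 0.19, -0.11 and 0.019 in experiment 1, and 0.0048, 0.030 and -0.016 in experiment 2), so the numbers pair nothing. With a replicate block 2327 genes were called in experiment 1. ALDH1L1 of experiment 1 then had an adjusted p of 0.0969, and SHMT1 (0.20, adjusted p = 0.161) and ALDH1L2 (-0.38, adjusted p = 0.118) lost the contrast between induced cells. Low counts limit ALDH1L1 and the circular RNAs.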

Other observations

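Some neighbours of the 10 enzymes rose in experiment 1 and fell in experiment 2, the other way round from PSAT1, MTHFD2 and ALDH1L2. MTHFD2L, a mitochondrial paralog of MTHFD2 singled out after its values were seen, had 16.4, 15.8 and 14.4 CPM in induced libraries of experiment 1, against 13.1, 13.1 and 11.1 CPM in uninduced libraries. It rose by 0.32 on the log2 scale (edgeR, adjusted p = 0.0331), with no overlap of the groups. The call was lost, with an adjusted p from 0.0550 to 0.133, without induced library 1, 2 or 3 or without uninduced library 2. In experiment 2 it had 15.4, 15.5 and 17.0 CPM in induced libraries, against 18.3, 19.5 and 18.2 CPM in parental libraries, and fell by 0.23 (adjusted p = 0.0113). Without induced library 1 of experiment 2 its adjusted p was 0.0559. MAT2A fell by 0.28 in experiment 2 (adjusted p = 0.000112) and rose in experiment 1. PFAS, of purine synthesis and also named after its values were seen, rose by 0.36 in experiment 1 (adjusted p = 0.00592). It fell by 0.72 in experiment 2 (adjusted p = 9.20e-11). CTH went the same way as PSAT1, MTHFD2 and ALDH1L2, with a fall in experiment 1 and a rise of 0.42 in experiment 2 (adjusted p = 5.54e-05). Not all pathway genes called higher in experiment 1 turned. SLC19A1 (0.29, adjusted p = 0.000429) and MTRR (0.70, adjusted p = 1.58e-10) rose in experiment 2 as well. The share of all genes with opposite calls was not counted.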
